A study of Mus musculus with 12 samples.

Results

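Opposite-strand noncoding RNAs are transcripts named after a neighbouring gene that lies on the other DNA strand, such as Lhx1os beside Lhx1. They were taken as the rows of a mouse gene count table whose symbol is another symbol of the table followed by os, os1, os2 or os3. The rule matched 151 genes. Of these, 8 are annotated as protein coding and were set aside, which left 143 noncoding genes of 25674 rows, with 131 partner genes. The partner's values are read only for comparison.

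The neurons carried the red reporter tdTomato and were sorted by flow cytometry from the spiral ganglion, which relays sound from the cochlea to the brain, at E14.5, in mid-gestation. By the labels, each library held 100 cells from both inner ears of a single embryo of either sex, on a mixed C57BL/6/sv129 background. The 6 control libraries had the genotype Neurod1Cre; Rosa26tdTOM, and the 6 libraries labelled ISL1CKO (Isl1CKO below) had Neurod1Cre; Isl1loxP/loxP; Rosa26tdTOM, so Cre and the reporter were present in both groups. Cre came from a transgene built on a Neurod1 genomic construct, and it removes the loxP-flanked part of Isl1, a LIM-homeodomain transcription factor, in cells with a history of Neurod1 expression. The numbered samples are technical replicates by a label tag and biological ones by the design text, so p-values here measure the spread between these samples, which may be technical in part.

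Total counts ran from 11895603 to 13857480 per library. Levels are given as CPM, counts scaled to a common library size by TMM, and 3 counts correspond to between 0.216 and 0.252 CPM. The counts of Isl1 did not separate the groups (log2 difference -0.15 with a standard error, SE, of 0.11; adjusted p = 0.460 by edgeR), and counts over the whole gene cannot show whether its floxed part was removed. All 12 neuronal markers were tested, of which 2 were called higher and 4 lower, with summed levels of 16160 to 18404 CPM in the controls and 13674 to 15909 CPM in Isl1CKO. Markers of macrophages summed to between 2.96 and 439.6 CPM (median 8.50) in the controls and between 1.86 and 781.6 CPM (median 130.9) in Isl1CKO, and 0 of the 10 tested were called. Schwann cell markers summed to between 31.9 and 188.2 CPM in the controls and between 35.1 and 268.5 CPM in Isl1CKO, with 0 of 7 called. Of 4 tested mesenchyme markers 2 were called higher, and this list summed to between 38.6 and 84.5 CPM in the controls and between 72.0 and 121.9 CPM in Isl1CKO, whereas Twist1 lay at or under 3 counts in all Isl1CKO libraries. Libraries Isl1CKO 2, 3 and 5 stood apart from the rest because they held both Xist, at 62.9 to 132.3 CPM, and Y-linked transcripts, at a mean of 35.7 to 87.3 CPM, which goes against their description as cells of 1 embryo each. Results are therefore also given without them where that changed a call. Controls 3 and 4 held Xist at 398.5 and 271.4 CPM and Y-linked transcripts at a mean of 0.292 and 0.426 CPM. The other controls held Xist at 0.0831 to 0.366 CPM and Y-linked transcripts at a mean of 101.5 to 117 CPM. Isl1CKO 6 resembled the former, at 184.9 and 0.267 CPM, and Isl1CKO 1 and 4 the latter. Neither group can therefore come from a single embryo.

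An opposite-strand RNA can arise when a promoter fires in both directions, when transcription starts from within a gene on the other strand, or when the 3' ends of neighbouring genes run past each other. Some such RNAs act on the neighbouring gene, some are the precursors of microRNAs, and for many no role is known. Genes of developmental transcription factors, Lhx1 and Emx2 among them, are often flanked by transcripts of this kind.

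All 143 RNAs lay on the strand opposite to their partner in GENCODE M21 on GRCm38. The largest class, with 58 members, lay wholly inside the partner gene, and 45 overlapped its 5' end. A further 22 were head-to-head with the partner without overlap, and 19 of these began within 1000 bases of the partner's start, with a median distance of 165 bases over the 22. The others overlapped the 3' end (10), spanned the partner (5) or lay downstream of it (3). The exons of 86 members overlapped exons of the partner, by a median of 11.3% of their own exon length. Whether the counting used strand is not given in the sources used here, so for these 86 the reads of the RNA and of its partner cannot be told apart over the shared bases. Exons of other members can lie in introns of the partner, as for Dnm3os and Nr6a1os, which share no exon bases with it. Without use of strand, reads of the partner's unspliced RNA could be counted to such members. That share was not tested. The exons of 19 members also overlapped a gene other than the partner.

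Lhx1os and Emx2os, the tested RNAs with the largest rises, each share a start region with a homeobox gene in the RefSeq annotation. Those regions are shown because both transcripts of each pair begin there. Lhx1os (ENSMUSG00000087211, chr11:84525660-84535831, plus strand, 5 exon blocks) begins 125 bases upstream of Lhx1 and runs away from it. Emx2os (ENSMUSG00000087095, chr19:59425104-59458635, minus strand, 4 exon blocks) overlaps the 5' end of Emx2 by 264 bases in GENCODE, which is 5.26% of its exon length. The sequences are RefSeq promoter windows of 300 bases on GRCm38.p6, plus strand, running from 250 bases before the start of Lhx1os or Emx2 to 50 bases into it. Capitals mark the bases that lie between the RefSeq starts of the pair. The 2 annotations differ for Emx2, whose start is base 59458690 in RefSeq and base 59458372, before the window, in GENCODE. By the RefSeq starts the 5' ends of Emx2 and Emx2os do not overlap.
Lhx1os and Lhx1, chr11:84525410-84525709: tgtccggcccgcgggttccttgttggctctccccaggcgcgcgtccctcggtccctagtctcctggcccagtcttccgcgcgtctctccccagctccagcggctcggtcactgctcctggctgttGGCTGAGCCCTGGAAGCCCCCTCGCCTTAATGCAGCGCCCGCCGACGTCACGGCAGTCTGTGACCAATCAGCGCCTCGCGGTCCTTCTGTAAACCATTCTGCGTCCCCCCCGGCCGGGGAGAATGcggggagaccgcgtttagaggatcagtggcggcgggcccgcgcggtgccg
Emx2 and Emx2os, chr19:59458440-59458739: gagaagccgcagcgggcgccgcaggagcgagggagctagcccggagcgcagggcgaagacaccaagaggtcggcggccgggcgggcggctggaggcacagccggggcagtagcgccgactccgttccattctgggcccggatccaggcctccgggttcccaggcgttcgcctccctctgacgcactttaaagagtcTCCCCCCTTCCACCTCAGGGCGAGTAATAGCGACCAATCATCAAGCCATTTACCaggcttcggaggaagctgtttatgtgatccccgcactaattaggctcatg

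The capitals span 125 bases in the first window and 54 bases in the second. Both windows were rich in G and C, at 69.3% and 64.3% against a median of 52.7% over 32851 RefSeq windows of the same length, and held 33 and 26 CpG pairs against a median of 7. The letters TAAT, the core read by many homeodomain proteins, were searched on both strands and occurred 1 time in the Lhx1os window and 3 times in the Emx2 window, with 1 match between the starts in each. TAAT occurs in 58% of all windows. CCAAT occurred 1 time in each window, between the starts, and occurs in 37.4% of all windows. These matches describe the letters only. Windows were found for 87 of the 143 members.

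Other sequences shown are mature microRNAs cut from opposite-strand RNAs, because Dnm3os and Dio3os are the hosts of known hairpins on their own strand. Dnm3os (ENSMUSG00000078190, chr1:162217623-162225550, plus strand) holds Mir199a-2 and Mir214, and Dio3os (ENSMUSG00000113581, chr12:110275385-110278172, minus strand) holds Mir1247. Letters are RNA from RefSeq on GRCm38.p6, 5' to 3', with the seed, bases 2 to 8, in capitals.
mmu-miR-199a-5p (Dnm3os): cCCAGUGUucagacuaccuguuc
mmu-miR-199a-3p (Dnm3os): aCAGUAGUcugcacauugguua
mmu-miR-214-5p (Dnm3os): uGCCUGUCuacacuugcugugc
mmu-miR-214-3p (Dnm3os): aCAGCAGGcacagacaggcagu
mmu-miR-1247-5p (Dio3os): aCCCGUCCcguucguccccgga
mmu-miR-1247-3p (Dio3os): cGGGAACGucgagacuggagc

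No seed was shared between these microRNAs. The 3 hairpins are not among the rows analysed here, so the values below are those of the long host transcripts and not of the microRNAs.

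Most opposite-strand RNAs were scarce in these neurons. Their mean level over the 12 libraries had a median of 0.416 CPM, against 20.3 CPM for the partners. Per kilobase of exon the medians were 0.242 and 3.83 CPM per kb, and 20 of 143 RNAs stood above their own partner on that scale. A mean of at least 1 CPM was reached by 43 RNAs and of at least 10 CPM by 10. A count was found in all 12 libraries for 45 RNAs, and 5 never exceeded 3 counts in any library.

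**Figure D1:**
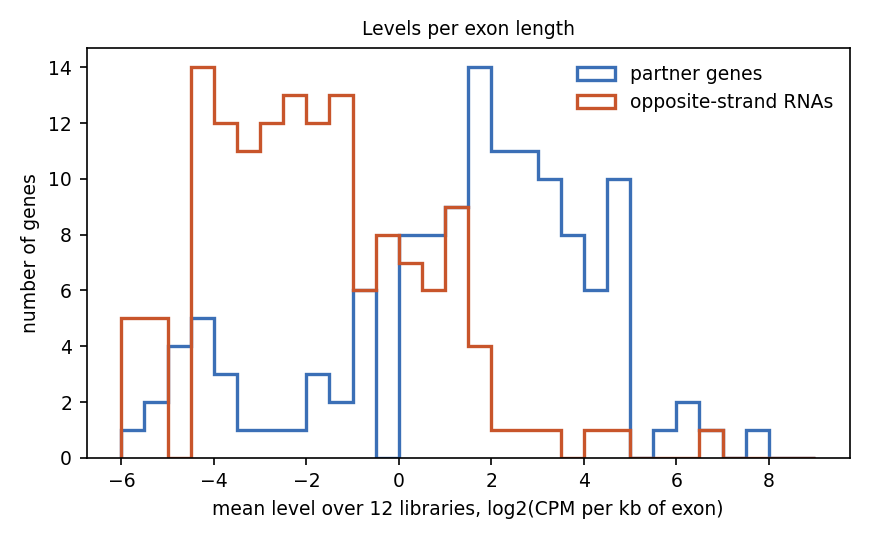
Histogram of the mean level over 12 libraries, in log2(CPM per kb of exon), for 143 opposite-strand RNAs and their 131 partner genes; the vertical axis is the number of genes, and 2 genes lie outside the plotted range. The opposite-strand RNAs are shifted towards low levels, with medians of 0.242 and 3.83 CPM per kb.

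The 10 RNAs with the highest CPM, a scale not corrected for length, were Lhx1os, Dnm3os, Rab10os, Srrm4os, Fbxl12os, Nr6a1os, Brip1os, Ino80dos, Cep83os and Epb41l4aos. Rab10os, opposite a small GTPase of vesicle traffic, stood at 24.7 ± 5.73 CPM in the controls and 28.9 ± 2.91 CPM in Isl1CKO (SD, n = 6 each). Srrm4os, opposite the neuronal splicing regulator Srrm4, stood at 20.5 ± 10.2 and 22.4 ± 4.19 CPM (SD, n = 6 each). The groups overlapped for both RNAs and neither difference passed the test.

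Summed over all 143 RNAs, the controls reached 234.5 to 310.3 CPM and Isl1CKO 315.3 to 448.4 CPM. Without Lhx1os the sums were 220.5 to 301.2 CPM and 220.6 to 268.0 CPM, so the rise of the sum was carried by that RNA. No test was made of these sums.

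Between genotypes, 46 of the 143 RNAs had enough counts to be tested, and 3 of them rose: Lhx1os, Emx2os and Nr6a1os. None fell at an adjusted p of 0.05 (quasi-likelihood test of edgeR, Benjamini-Hochberg over all tested genes). At an unadjusted p under 0.05, 6 members passed, 2 of them lower, which is 13% and 4.35% of the members, against 23.3% and 11.8% of all tested genes. The 3 calls are 6.52% of the tested members, against 10.2% of all 14813 genes tested (5.01% higher and 5.19% lower), 11.3% of the tested protein-coding genes and 6.48% of the 1728 tested long noncoding genes of all names. The median log2 difference was -0.05 over the tested members and 0.0045 over all tested genes. An RNA passed the filter on low counts in some cases only through its higher group, as Emx2os did, so the tested members do not stand for all 143.

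In 4 of 143 RNAs, or 2.8%, the groups did not overlap, against 4.26% of all genes in the table (1.96% higher and 2.3% lower). Among the 46 tested RNAs it was 2, or 4.35%, against 6.78% of tested genes. Lhx1os and Emx2os were higher in every Isl1CKO library, and Dio3os and Chrna1os were lower in every one. The 34 tested members outside those described one by one had log2 differences between -1.01 and 0.74, with a smallest adjusted p of 0.310.

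Lhx1os had the highest CPM of the 143 RNAs in Isl1CKO. Its level was 9.09 to 15.9 CPM in the controls, with a median of 12.0, and 94.6 to 180.4 CPM in Isl1CKO, with a median of 132.4. The lowest Isl1CKO library thus lay far above the highest control. Mean levels were 12.0 ± 2.995 and 135.5 ± 31.3 CPM (SD, n = 6 each), a log2 difference of 3.49 (SE 0.20; edgeR adjusted p = 5.36e-08). The call held in all 22 other fits, between 3.39 and 3.64 on the log2 scale. In pooled cells such as these, more cells with a transcript and more of it per cell cannot be told apart.

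Lhx1, which encodes a LIM-homeodomain transcription factor of the same class as ISL1, rose beside it from 12.4 ± 5.31 to 221.2 ± 80.8 CPM (SD, n = 6 each; log2 difference 4.15, SE 0.31, edgeR adjusted p = 5.84e-07). The exons of the pair do not overlap. Per kilobase of exon, Lhx1os exceeded Lhx1 in every library, by a median ratio of 5.21 in the controls (4.52 to 9.44) and 3.61 in Isl1CKO (2.97 to 4.42). Lhx1os has only 698 bases of exon and Lhx1 has 4072, and the position of the reads along these exons was not analysed here.

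Emx2os rose from near 0 in the controls. The control libraries 1 to 6 held 0, 0, 0, 1, 4 and 0 counts, and the Isl1CKO libraries 1 to 6 held 50, 88, 38, 79, 170 and 23. Every Isl1CKO library therefore stood above every control, although they differed among themselves from 1.75 to 12.4 CPM. The mean in Isl1CKO was 5.62 ± 3.82 CPM, against 0.0652 ± 0.127 CPM in the controls (SD, n = 6 each). The summed counts stood in a ratio of 87.2, with a counting interval of 37.1 to 269.9 at 95% (exact, counting error only). The fitted log2 difference was 6.24 (SE 0.88; edgeR adjusted p = 2.86e-04), and without Isl1CKO 2, 3 and 5 it was 5.70 (edgeR adjusted p = 0.0106).

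Emx2, a homeodomain factor known for patterning the cochlea, had at most 3 counts in any control library and 145 to 584 counts in Isl1CKO. Its mean of 28.1 ± 11.8 CPM (SD, n = 6) was at least 122-fold higher than in the controls, computed against the floor of 3 counts per library. The fitted log2 difference was 8.14 (SE 0.49; edgeR adjusted p = 8.86e-08). Per kilobase, Emx2os reached a median of 0.134 of the level of Emx2 in Isl1CKO, the reverse order of the Lhx1 pair. Because 264 exon bases are shared in GENCODE M21, a part of the Emx2os counts could be reads of Emx2. By the RefSeq starts the pair does not overlap, and the annotation used for counting may differ from GENCODE M21. Markers of otic epithelium, a tissue that borders the ganglion, summed to 21.9 to 47.8 CPM in the controls and 11.6 to 31.7 CPM in Isl1CKO, and of 3 tested 0 were called higher and 1 lower. Of the 8 markers in that list, Oc90 and Otx2 lay at or under 3 counts in every control library, and none did so in every Isl1CKO library. The part of such cells in the Emx2os values was not tested.

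**Figure D2:**
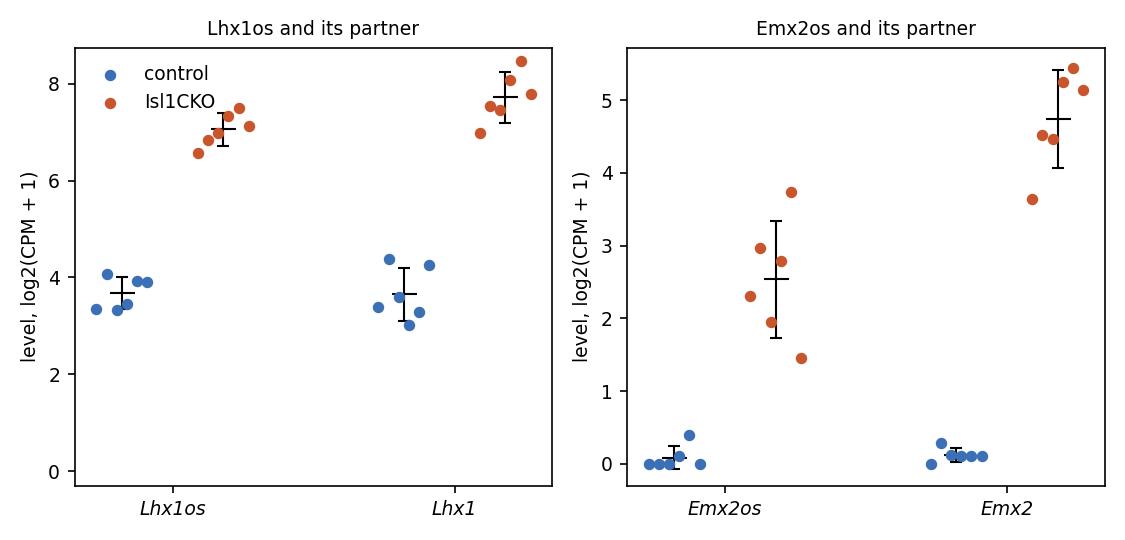
Levels in log2(CPM + 1) of Lhx1os and Lhx1 (left) and of Emx2os and Emx2 (right) in 6 control and 6 Isl1CKO libraries; points are libraries, bars the mean and SD of the log2 values. For all 4 genes every Isl1CKO library lies above every control, with Emx2os from 1.75 to 12.4 CPM and Lhx1os from 94.6 to 180.4 CPM in Isl1CKO.

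Nr6a1os is a short RNA (801 bases of exon, chr2:38823257-38852370, plus strand) that lies inside Nr6a1, the gene of an orphan nuclear receptor, and shares no exon bases with it. It rose by a smaller step, and against the direction of its partner's estimate. Control libraries lay at 8.37 to 15.95 CPM with a median of 9.97, and Isl1CKO libraries at 14.9 to 22.2 CPM with a median of 18.7. The groups overlapped only through control 1 at 15.95 CPM, since the other 5 controls reached at most 10.3 CPM. Control and Isl1CKO means were 10.7 ± 2.67 and 18.3 ± 2.53 CPM (SD, n = 6 each), a log2 difference of 0.78 (SE 0.19; edgeR adjusted p = 0.0188). The call was lost without Isl1CKO 2, 3 and 5 (0.63, adjusted p = 0.229) and with covariates for the levels of macrophage and Schwann cell markers (0.84, adjusted p = 0.0606). The part of those cells in this difference was not tested further.

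Nr6a1 itself stood at 9.80 ± 4.01 CPM in the controls and 3.42 ± 3.09 CPM in Isl1CKO (SD, n = 6 each; log2 difference -1.52, SE 0.53, edgeR adjusted p = 0.0895). Isl1CKO 2 and 3, 2 of the libraries that stood apart, held 7.91 and 6.77 CPM, and the other 4 held 0.971 to 2.04 CPM. Without Isl1CKO 2, 3 and 5 the difference was -2.96 (edgeR adjusted p = 0.00469), and DESeq2 called the lower level with all libraries (adjusted p = 0.0281). Per kilobase, Nr6a1os exceeded Nr6a1 by a median ratio of 17.4 in the controls and 141.2 in Isl1CKO. Nr6a1os was the only tested RNA that was called while its partner was not.

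Dnm3os, the host of miR-199a and miR-214, lay just outside the threshold. It is inside Dnm3, the gene of a dynamin that pinches off membrane vesicles, and shares no exon bases with it. The controls ran from 23.9 to 58.8 CPM with a median of 33.6, and Isl1CKO from 11.3 to 28.3 CPM with a median of 22.8. The ranges overlapped. On average it stood at 36.9 ± 12.9 and 20.0 ± 6.96 CPM (SD, n = 6 each), a log2 difference of -0.88 (SE 0.27; edgeR adjusted p = 0.0514). It passed in 6 of 22 other fits, among them DESeq2 (adjusted p = 0.0122), and its adjusted p was 0.420 with the macrophage and Schwann cell markers as covariates, where the difference was -0.48. Twist1, a mesenchyme marker, held 3 to 32 counts per control library and at most 1 in Isl1CKO, whereas the mesenchyme list as a whole had 2 of 4 tested markers called higher and larger sums in Isl1CKO, as given above. The part of such cells in the Dnm3os values was not tested.

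Dnm3 fell from 326.9 ± 51.4 to 151.9 ± 30.2 CPM (SD, n = 6 each; log2 difference -1.10, SE 0.14, edgeR adjusted p = 8.24e-05), with no overlap between groups. Per kilobase, Dnm3os stood at a median of 0.318 of Dnm3 in the controls and 0.468 in Isl1CKO, and these ratios overlapped between the groups.

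Sorbs2os was the other RNA next to the threshold. Counts ran from 9 to 46 in the controls and from 3 to 12 in Isl1CKO, and the groups overlapped between 9 and 12 counts. The log2 difference was -1.51 (SE 0.55; edgeR adjusted p = 0.105). Its partner Sorbs2, an adaptor protein of the actin cytoskeleton, fell by 1.67 on the log2 scale (SE 0.15, edgeR adjusted p = 2.73e-06), from 308.2 ± 52.8 to 97.1 ± 20.5 CPM (SD, n = 6 each). Of the exon bases of Sorbs2os, 42.5% overlap exons of Sorbs2, so its counts could include reads of the partner, which per kilobase stood at 11.1 CPM in the controls against 0.770 for Sorbs2os.

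Dio3os was too scarce for the filter on low counts but differed in every library. The gene lies head-to-head with Dio3, which encodes the deiodinase that inactivates thyroid hormone, with 896 bases between the starts. The controls held 21, 23, 8, 9, 22 and 25 counts in replicates 1 to 6, and Isl1CKO held 5, 0, 1, 2, 0 and 0. The summed counts were 108 and 8, a ratio of 13.9 (counting interval 6.79 to 32.9) in favour of the controls. With no filter the log2 difference was -3.65, SE 0.92 (edgeR adjusted p = 0.0279), and without Isl1CKO 2, 3 and 5 it was -2.89 (adjusted p = 0.152). Dio3 fell from 6.14 ± 3.13 to 0.152 ± 0.301 CPM (SD, n = 6 each; log2 difference -5.25, SE 0.89, edgeR adjusted p = 0.00119).

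Dio3 and Dio3os close the imprinted Dlk1-Dio3 region, where the maternal copy gives a series of long noncoding RNAs. Those RNAs did not pass the test: Meg3 had a log2 difference of -0.30 (edgeR adjusted p = 0.233), Rian of -0.03 (adjusted p = 0.897) and Mirg of 0.13 (adjusted p = 0.875). Meg3 was abundant, at 291.1 ± 70.8 CPM in the controls and 236.6 ± 35.1 CPM in Isl1CKO (SD, n = 6 each). Rtl1, expressed from the paternal copy, had a log2 difference of -0.43 (edgeR adjusted p = 0.847).

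Chrna1os, named for the muscle acetylcholine receptor subunit Chrna1, was also lower in every Isl1CKO library. Its start is 4512 bases upstream of that of Chrna1. The controls held 10 to 37 counts and Isl1CKO 1 to 9, a ratio of 3.58 of summed counts (counting interval 2.44 to 5.38) in favour of the controls. With no filter, the log2 difference was -1.83, SE 0.63, and did not pass (edgeR adjusted p = 0.119). Chrna1 itself was barely detected, with 21 counts summed over the controls and 25 over Isl1CKO.

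Brip1os gave no detected difference beside a partner that fell. It starts 177 bases upstream of Brip1, the gene of a DNA helicase of double-strand break repair, and runs away from it with no shared exon bases, although its exons overlap Ints2 and Med13. Controls lay at 9.37 to 15.8 CPM and Isl1CKO at 5.64 to 18.3 CPM, so the Isl1CKO range enclosed that of the controls. The log2 difference was -0.11 (SE 0.25; edgeR adjusted p = 0.837). Brip1 fell from 27.4 ± 7.79 to 5.13 ± 2.63 CPM (SD, n = 6 each; log2 difference -2.42, SE 0.35, edgeR adjusted p = 3.31e-04). The median ratio of Brip1os to Brip1 per kilobase was 0.617 in the controls, with a highest value of 0.685, and 2.54 in Isl1CKO, with a lowest value of 1.97. The difference between the responses of the pair was not tested in a model.

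**Figure D3:**
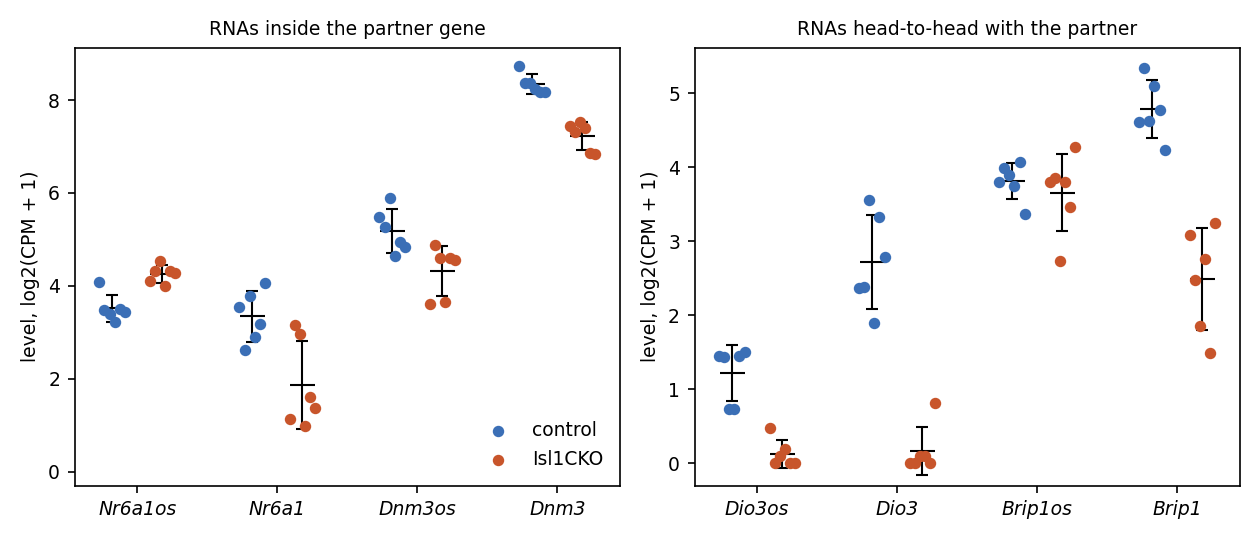
Levels in log2(CPM + 1) of 4 opposite-strand RNAs and their partners in 6 control and 6 Isl1CKO libraries; points are libraries, bars the mean and SD of the log2 values, with RNAs inside the partner on the left and head-to-head RNAs on the right. Nr6a1os is higher and Nr6a1 mostly lower in Isl1CKO, Dio3os, Dio3, Dnm3 and Brip1 are lower in every Isl1CKO library than in any control, and the Dnm3os and Brip1os groups overlap.

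The remaining abundant RNAs gave no call. Fbxl12os, downstream of an F-box protein gene, had a log2 difference of 0.63 (SE 0.24; edgeR adjusted p = 0.122), between 11.99 ± 3.52 and 18.5 ± 4.96 CPM (SD, n = 6 each). Ino80dos, at the 5' end of a subunit gene of the INO80 chromatin remodeller, stood at 11.3 ± 3.41 and 10.5 ± 2.25 CPM (SD, n = 6 each). Cep83os, head-to-head with the centriole gene Cep83 at 78 bases, stood at 10.8 ± 5.61 and 10.1 ± 2.75 CPM (SD, n = 6 each). Their partners Fbxl12, Ino80d and Cep83 were not called, and nor were Rab10 and Srrm4. Exons of Ino80dos overlap exons of Ndufs1, and 15.0% of their length overlaps exons of Ino80d. Exons of Fbxl12os overlap those of Gm48069, and exons of Cep83os those of Gm49167. Counts of these RNAs could therefore include reads of the overlapping genes.

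Epb41l4aos stood at 10.8 ± 2.76 and 9.60 ± 1.57 CPM (SD, n = 6 each), a log2 difference of -0.16 (SE 0.23; edgeR adjusted p = 0.729). Its partner Epb41l4a, a gene of the band 4.1 family of membrane skeleton proteins, rose by 0.84 (SE 0.17, edgeR adjusted p = 0.00539), and with the macrophage and Schwann cell markers as covariates the difference was 0.76 and the call was lost (adjusted p = 0.0595). The annotation places Epb41l4aos downstream of Epb41l4a, without overlap.

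Among the partner genes 9 rose and 20 fell. These 29 calls are 26.1% of the 111 partners tested, of 131 in all, against the 10.2% of all genes. No comparison at matched level was made. Both genes were tested in 45 pairs. In 2 pairs both were called, in 1 the RNA alone and in 11 the partner alone. Of these 11 partners 9 were lower, and the RNA's estimate had the partner's sign in 10 of the 11 pairs, against 29 of all 45. The pairs are not independent of each other where exons overlap: in 7 of the 11 the exons overlap, and all 7 had the same sign, against 3 of the 4 without overlap. Those 4 are Brip1os, Dnm3os, Epb41l4aos and Grip1os1, and the last was named here after its values were seen. Of these, Dnm3os and Grip1os1 lie inside the partner, where reads of its unspliced RNA could be counted to them without use of strand. Grip1os1 had a log2 difference of -0.09 (SE 0.51; edgeR adjusted p = 0.946) inside Grip1, the gene of a glutamate receptor scaffold, which fell by 1.40 (edgeR adjusted p = 2.58e-04). The estimates of Grip1os1 and Brip1os (-0.11, SE 0.25) were smaller than their standard errors, so their signs carry little information. Without Isl1CKO 2, 3 and 5 the estimate of Brip1os was 0.15.

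**Figure D4:**
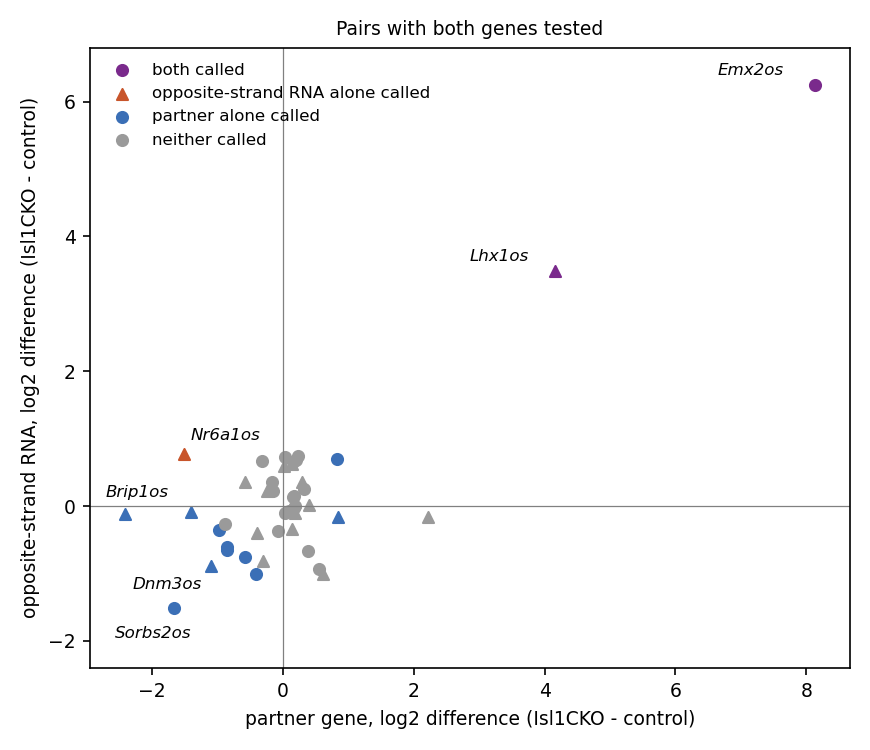
Log2 difference (Isl1CKO minus control) of the opposite-strand RNA against that of its partner for the 45 pairs with both genes tested; circles are pairs whose exons overlap, triangles pairs whose exons do not, and colours show which gene was called. Emx2os and Lhx1os stand far to the upper right at 6.24 and 3.49, while the 11 pairs with the partner alone called lie mostly to the lower left.

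Counts were too low to test the RNA in 23 cases where the partner was called. These belong to 19 partners, which were lower in 18 of the 23 cases, and 15 of the 23 RNAs lie inside the partner. Peak1os, inside the gene of the cytoskeletal pseudokinase Peak1, held 8, 0, 20, 0, 7 and 0 counts in control replicates 1 to 6 and 0 in every Isl1CKO library. Peak1 fell from 150.2 ± 32.5 to 13.9 ± 4.94 CPM (SD, n = 6 each; log2 difference -3.43, SE 0.22, edgeR adjusted p = 1.94e-07). Since 3 controls also held 0 counts of Peak1os, its groups overlapped.

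Rapgef4, the gene of a cyclic AMP-activated exchange factor for Rap, fell by 3.27 on the log2 scale (SE 0.49, edgeR adjusted p = 4.69e-04) and carries 2 untested members. Rapgef4os2 held 21 counts over the controls and 1 over Isl1CKO, and Rapgef4os3 held 38 and 3. With no filter neither passed (edgeR adjusted p = 0.126 and 0.112). These RNAs lie inside Rapgef4. Rapgef4os3 shares no exon bases with Rapgef4, whereas 15.9% of the exon length of Rapgef4os2 does.

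Among partners that are transcription factors, Sox6 rose by 3.39 on the log2 scale (SE 0.68, edgeR adjusted p = 0.00435), a call lost without Isl1CKO 2, 3 and 5 (2.84, adjusted p = 0.0853). Sox6os, inside it, held 0 counts in every control and 10 over Isl1CKO, spread as 5, 0, 1, 0, 4 and 0, which is too few to give a direction. Tbx3 rose by 2.27 (SE 0.65, edgeR adjusted p = 0.0379), and without Isl1CKO 2, 3 and 5 it was 0.90 (adjusted p = 0.609). Tbx3os1, at its 5' end, held 1, 11, 35, 1, 17 and 1 counts in Isl1CKO 1 to 6 and at most 5 in any control. The 3 libraries with 11 or more counts of Tbx3os1 were Isl1CKO 2, 3 and 5, those with transcripts of both sexes. Prox2, a homeobox gene, fell by 2.10 (SE 0.58, edgeR adjusted p = 0.0321), and without Isl1CKO 2, 3 and 5 the difference was -2.79 and did not pass (adjusted p = 0.0656). Prox2os held 28 counts over the controls, 20 of them in control 3, and 13 over Isl1CKO.

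Plet1, a gene of a surface protein of epithelial progenitors, fell by 2.51 (SE 0.76, edgeR adjusted p = 0.0496), at the edge of the threshold, and that call was lost in 15 of 22 other fits, among them the fit without Isl1CKO 2, 3 and 5 (-3.55, adjusted p = 0.109). Plet1os, which spans it, held 8 counts over the controls and 4 over Isl1CKO. Calls of Prox2 and Tbx3 were each lost in 10 of 22 other fits.

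Over all 143 RNAs with no filter on counts, 4 were called, or 2.8%, against 5.36% of the whole table. These are Lhx1os, Emx2os and Nr6a1os, which were higher, and Dio3os, which was lower. A pair of further RNAs, named after their values were seen, were called lower in some other fits only. Pcsk2os2, inside the prohormone convertase gene Pcsk2, held 8 to 49 counts in the controls and 0 to 8 in Isl1CKO, meeting at 8, and was called in 6 of 22 other fits. Nrg3os, inside the neuregulin gene Nrg3, held 2 to 24 and 1 to 7 counts and was called in 2 of them.

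A comparison list of 45 other long noncoding RNAs known by name, with 39 in the table and 30 tested, held 1 higher and 1 lower call, or 6.67%, with a median log2 difference of -0.15. The higher one was Rmst, a neural long noncoding RNA, which went from 13.7 ± 7.12 to 58.5 ± 19.01 CPM (SD, n = 6 each; log2 difference 2.10, SE 0.32, edgeR adjusted p = 4.79e-04). The lower one was Airn, antisense to the imprinted gene Igf2r, at -1.43 (SE 0.40, edgeR adjusted p = 0.0330), a call lost without Isl1CKO 2, 3 and 5 (-1.08, adjusted p = 0.187). By share of calls, the opposite-strand RNAs (6.52%) stood beside both this list and the long noncoding genes of all names (6.48%).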

How the data were processed

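The authors deposited 1 table of whole-number counts per Ensembl gene for the 12 libraries, not normalized. Per the submitters' processing notes, cutadapt 1.18, Bowtie 1.2.2, STAR 2.7.0c, featureCounts and GRCm38.p6 were used, with no roles stated. Use of strand is not given in the sources used here. The lowest gene total was 10 counts. Symbols were found for 25620 of 25674 identifiers, and GENCODE M21, which may differ from the annotation used for counting, located 25627. Library totals differed little, so precision varied mainly with a gene's own count. Intervals and the floor of 3 counts cover counting error only, since PCR reads without molecular identifiers are not independent molecules.

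Counts were filtered with filterByExpr (minimum count 10), scaled with TMM and tested in edgeR 4.0.16 under R 4.3.3 by the robust quasi-likelihood test with no covariate, with Benjamini-Hochberg adjustment over all 14813 tested genes and a threshold of 0.05. The standard error of a log2 difference came from the same fit. Simulated counts of 14381 genes for this comparison had 97 genes changed by 1 and 97 by 2 on the log2 scale. Of these edgeR recovered 52.6% and 75.3%, with 3.88% false calls. DESeq2 1.42.0 made 17.2% false calls and limma-voom (limma 3.58.1) 5.83%. The changed genes were drawn from all levels and were far fewer than the 1511 called in the data. These shares therefore need not hold for the data or for the scarce members.

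The members and lists were chosen with earlier results of these data known. Described one by one are the members called, the 10 with the highest mean CPM, those whose groups did not overlap, those whose partner was called with an absolute log2 difference of at least 2, and the 2 next to the threshold. The 8 protein-coding symbol matches were left out; 5 were tested and 0 called, with log2 differences from -0.20 to 0.34. Alternatives were other scalings, filters and tests, the replicate number as a block, marker levels as covariates, robust estimation off, libraries left out, a fold threshold, and other member definitions, 2 of which were chosen after seeing the data. No pair of libraries was found to be the same library.

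Marker lists for neurons, macrophages, Schwann cells, mesenchyme, hair cells, otic epithelium, red blood cells and endothelium were read as summed CPM. Hair cell markers summed to 308.4 to 611.9 CPM in the controls and 333.4 to 640.5 CPM in Isl1CKO, red blood cell markers to 1.41 to 4.82 and 1.01 to 5.87 CPM, and endothelial markers to 0.366 to 1.33 and 0.292 to 29.8 CPM.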

Additional observations from a re-analysis of the deposited data

Results flagged for a closer look

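Among 57 group values of the described genes, 4 had a library that stood apart from the other 5 by more than Dixon's 95% criterion, and chance gives about 1 in 20, or 2.85. Nr6a1os in control 1 lay at 15.95 CPM, above 8.37 to 10.3 CPM in the other controls, and is the value through which its groups overlap. The other 3 are partner genes. Dnm3 in control 1 lay at 425.2 CPM against 287.5 to 328.5 CPM. Peak1 in control 2 lay at 214.5 CPM against 126.1 to 146.1 CPM. Rapgef4 in control 4 lay at 36.1 CPM against 12.7 to 16.8 CPM.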

How the results depend on the processing

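Lhx1os and Emx2os were called higher in all 22 other fits, Nr6a1os in 20. The count of RNAs called lower was 0 in the main analysis. It was 1, Dnm3os each time, with upper quartile scaling, the DESeq2 Wald test or the replicate block. With no filter on low counts it was 1 (Dio3os), and with a mean of at least 1 CPM it was 2 (Dnm3os and Pcsk2os2). With a library left out in turn it was 0 to 1, the RNA being Dnm3os, Pcsk2os2 or Nrg3os. Over all alternatives this count moved in 14 and stayed the same in 12. Partners called higher were 9, or 5 without Isl1CKO 2, 3 and 5, and 4 where an absolute log2 difference of at least 1 was also required. Of all genes 1511 were called, 929 with the marker covariates and 767 without Isl1CKO 2, 3 and 5. The causes were not tested. Of the other named long noncoding RNAs 1 was called higher, 2 with no filter, DESeq2, limma-voom or the replicate block, and 1 to 3 with a library left out; 1 was called lower, 2 with DESeq2, 0 with the replicate block, with the marker covariates or without Isl1CKO 2, 3 and 5, and 0 to 2 with a library left out. The replicate numbers paired the libraries weakly or not at all. Deviations of same-numbered libraries correlated at -0.056 to 0.152, over 0.1 in 1 of 6 pairs. Of 12 libraries 4 correlated best with their own number, which leaves a weak pairing possible. With the replicate block 1450 genes were called. Low counts left 97 of 143 RNAs untested.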
